A study of Homo sapiens with 3 samples.

Results

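The region described is the stretch of chromosome 14 that holds the starts of PRKCH and HIF1A, from 61750000 to 62250000 (hg19), in 786-O cells. Members were the deposited peaks, called regions here, whose summit fell in this 500 kb. The stretch was selected on H3K27ac, since it holds the domain with the most summed fold times width in the series. There were 42 TEAD regions of 35241 and 39 H3K27ac regions of 52667 on chromosomes 1 to 22 and X, 81 of 87908 in all. 786-O is an established human clear cell renal carcinoma line, grown in RPMI-1640 with 10% FBS and with no treatment named in the labels. The study has 3 libraries from these cells, fixed in 1% formaldehyde for 10 min: 1 chromatin immunoprecipitation (ChIP) for the transcription factor TEAD, 1 for the histone mark H3K27ac, and 1 input, which was not analysed here. Each antibody had 1 library, so no value below has a replicate and no comparison below has a test. Fold is the authors' enrichment at a summit over their caller's local background. The reads at a summit and that background were recovered from the fold and its p. Intervals cover counting error only, of reads at a summit or of regions and spacings. Those on regions and spacings take neighbours as independent.

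TEAD proteins bind DNA at sites with the core GGAATG and recruit the co-activators YAP and TAZ, which the Hippo kinases hold out of the nucleus. H3K27ac marks active promoters and enhancers, and long runs of it are often called super-enhancers. HIF1A encodes the oxygen-regulated subunit of HIF-1, which pairs with ARNT and switches on genes of glycolysis and angiogenesis. 786-O cells are known for making HIF-2alpha protein and no functional HIF-1alpha. PRKCH encodes protein kinase C eta, a kinase that diacylglycerol activates without calcium and that is best known from differentiating epithelia. In the RefSeq annotation of GRCh38 the order of genes is PRKCH, TMEM30B, PRKCH-AS1, PRKCH-AS2, LINC01303, LINC03033, HIF1A-AS1, HIF1A, HIF1A-AS3, HIF1A-AS2 and SNAPC1. RefSeq's PRKCH entry also takes in transcripts that begin before TMEM30B, so the gene has other starts than the one used here. No hg19 annotation was used here, so where each gene ends was not placed on the peaks, and positions are given from the gene starts at 61788515 (PRKCH) and 62162119 (HIF1A), 374 kb apart.

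The promoters of both genes are shown because the peaks treated them differently. One had acetylation and TEAD over its start, and the other had neither. Each is the 250 bases before a RefSeq start on the + strand of GRCh38.p14, a start that need not be the hg19 position above. Capitals mark the only match to any of 4 motifs searched on both strands.
PRKCH, chr14:61321329-61321578: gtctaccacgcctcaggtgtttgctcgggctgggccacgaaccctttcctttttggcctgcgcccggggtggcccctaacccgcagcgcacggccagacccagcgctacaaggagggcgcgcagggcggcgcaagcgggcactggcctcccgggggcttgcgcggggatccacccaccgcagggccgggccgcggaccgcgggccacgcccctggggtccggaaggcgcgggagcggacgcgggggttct
HIF1A, chr14:61695263-61695512: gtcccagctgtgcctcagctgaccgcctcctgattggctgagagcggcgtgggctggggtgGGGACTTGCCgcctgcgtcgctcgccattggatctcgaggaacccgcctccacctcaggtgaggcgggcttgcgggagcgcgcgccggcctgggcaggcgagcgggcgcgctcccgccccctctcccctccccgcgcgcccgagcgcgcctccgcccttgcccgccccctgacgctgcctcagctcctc

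Both promoters were rich in G and C. The share was 75.2% for PRKCH with 30 CG pairs and 75.6% for HIF1A with 29, against a median of 58% (interquartile range 46.4 to 68%) and 11 CG pairs (3 to 23) over 35116 RefSeq promoters. The TEAD core GGAATG was in neither and in 11.9% of all promoters. The AP-1 letters TGANTCA were in neither and in 6.57% of all. The letters ACGTG, the core of the hypoxia response element, were in neither and in 18.5% of all. The HIF1A promoter held 1 match to an NF-kB-like pattern, the letters in capitals, and a match was in 5.07% of all promoters. A second HIF1A start in the same table, with 31.2% G and C, held none of the 4. A match is a description of the letters and no match covers these 250 bases only. The sequences under the TEAD summits were not analysed here.

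Promoters of related genes were searched for the same letters. Of 9 genes of the HIF pathway, 8 had a promoter in the table (HIF1A, EPAS1, HIF3A, ARNT, EGLN1, EGLN2, EGLN3 and HIF1AN) and 0 of the 8 held the TEAD core GGAATG. Of 9 protein kinase C genes 8 had one, and 1 of the 8, PRKCI, the atypical kinase iota, held it. ACGTG was found for 2 of the 8 HIF pathway genes, EGLN1 and EGLN2, whose products are oxygen-sensing prolyl hydroxylases, and for 0 of the 8 kinase genes. These counts are of genes, and HIF1A has more than 1 promoter in the table, whereas the shares of all promoters count each promoter. With 8 genes a list, they do not resolve a share from that of all promoters.

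TEAD and H3K27ac were both unevenly spread over the 500 kb. No region of either list lay before the PRKCH start or in the 139 kb that followed it. From there a domain of dense acetylation ran for 162 kb, from 61927711 to 62089925, and it held 37 of the 42 TEAD summits and 29 of the 39 H3K27ac regions. A domain is a run of H3K27ac regions joined over gaps of up to 12500 bp. It ended 72.2 kb before the HIF1A start. The remaining 5 TEAD summits were 1 alone between the domain and HIF1A, 1 at the HIF1A start, and 3 past it.

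**Figure D1:**
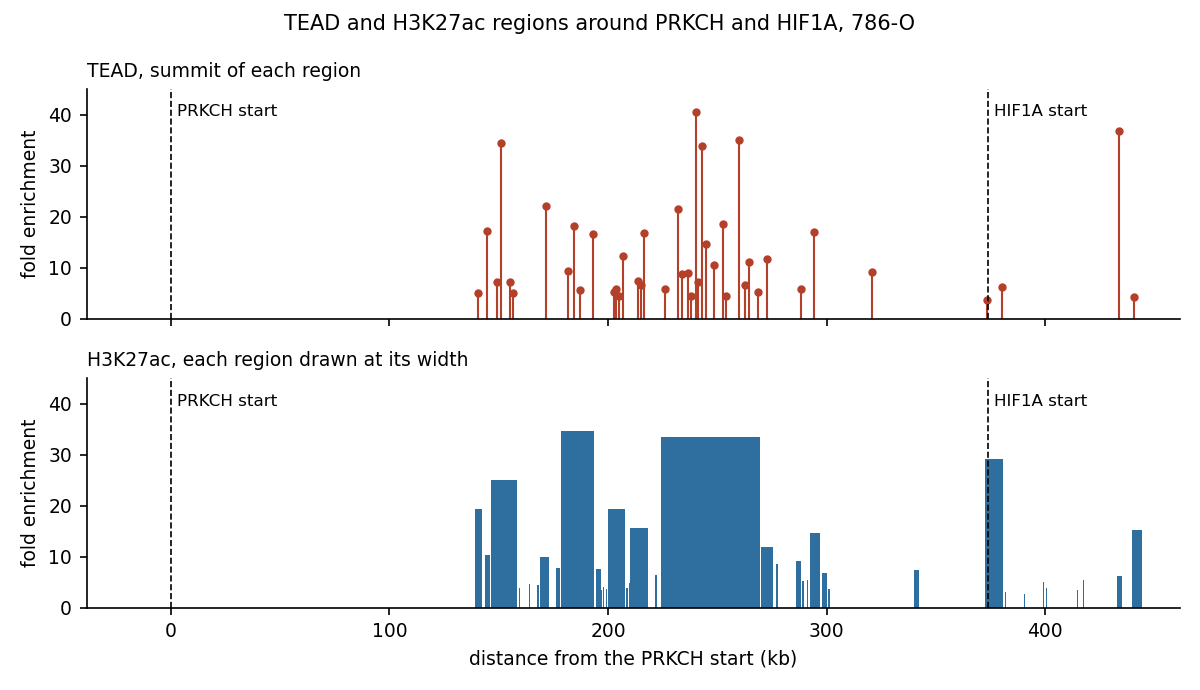
Fold enrichment of the 42 TEAD regions (top, a line at each summit) and the 39 H3K27ac regions (bottom, a bar as wide as the region and as high as its summit) by distance from the PRKCH start in kb. Dashed lines mark the PRKCH start and the HIF1A start 374 kb on, and both lists are empty until 139 kb, where the domain begins.

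The label of the stretch was checked against the peaks. Joined regions were ranked by fold times width, summed over the domain, and this domain ranked first of 22587, with a sum 1.22 times that of the second, on chromosome 6 from 43945355 to 44047497. It also ranked first with a joining gap of 5 kb, which ended it earlier, at 62066406. The ranking chose the domain, so its rank, span and acetylation are given as a description. The edges of the window cut through no dense stretch. The last regions below it had their summits at 61714831 (TEAD, 4.63-fold, 15 reads) and 61719262 (H3K27ac, 11.4-fold, 44 reads). The first above it were at 62328352 (TEAD, 19.4-fold, 55 reads) and 62393682 (H3K27ac, 3.86-fold, 11 reads). Inside, the outermost were the first members of the domain, at 61928953 (TEAD, 4.98-fold) and 61928989 (H3K27ac, 19.4-fold), and the last ones past HIF1A, at 62229083 (TEAD, 4.22-fold) and 62229464 (H3K27ac, 15.3-fold).

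PRKCH had no called region at its start. The nearest H3K27ac region below the start ended 69.0 kb away and the nearest above began 139 kb away, which left 208 kb without the mark. Stretches at least that long numbered 2612 of the 52644 between neighbouring H3K27ac regions. The nearest TEAD summits lay 73.7 kb below and 140 kb above. A count of 0 over the 139 kb from the PRKCH start to the domain allows up to 0.216 TEAD summits per 10 kb, taking 3 counts as the limit. An absent region means that no peak passed the authors' caller at this depth.

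The domain held TEAD at 2.28 summits per 10 kb of its span (95% Poisson interval 1.61 to 3.14). Between its end and the HIF1A start, 2 summits in 72.2 kb, 1 of them 84 bp before that start, gave 0.277 per 10 kb (0.0336 to 1.00). From the HIF1A start to the end of the window, 3 summits in 87.9 kb gave 0.341 (0.0704 to 0.998). The intervals of both flanks lay below that of the domain and overlapped each other. H3K27ac regions numbered 1.79 per 10 kb in the domain (1.20 to 2.57), 0.139 (0.00351 to 0.772) before HIF1A and 1.02 (0.468 to 1.94) from its start on, where the interval overlapped both others. H3K27ac covered 77.6% of the domain, 4.51% of the stretch before HIF1A and 18.7% of the stretch after it. The borders of the domain were drawn from these same H3K27ac regions. Its higher H3K27ac density and cover were therefore built in, and the intervals on them are a description only. A higher TEAD density was favoured by the same borders, since 55.3% of all TEAD regions had their summit inside H3K27ac. The intervals on TEAD density are likewise a description.

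In bins of 10 kb, TEAD summits were in 19 of 50 bins. The fullest bin, 231 to 241 kb from the PRKCH start, held 6. The 5 bins that H3K27ac covered for at least 90% held 18 of the 42 summits. The 25 bins with no H3K27ac held 1.

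Within the domain, neighbouring TEAD summits were a median of 2878 bp apart over 36 spacings (95% binomial interval of the median 1912 to 4242 bp; interquartile range 1846 to 5616 bp). The mean was 4275 ± 3668 bp (SD, n = 36 spacings), so the spacings were uneven. Between 1000 and 5000 bp lay 26 of the 36, and 13 were of 2000 bp or less. The shortest were 1011 bp (61991124 to 61992135), 1030 bp (62028704 to 62029734) and 1202 bp (62003541 to 62004743). TEAD regions in the domain had a median width of 601 bp, so summits nearer than about that width would tend to fall in 1 region, and no such pair can be seen in a peak list. The longest were 15686 bp (62061155 to 62076841), 15019 bp (61945126 to 61960145) and 10000 bp (61960145 to 61970145). The spacings of 15019 and 10000 bp meet at the 22.1-fold summit at 61960145, which had no TEAD neighbour nearer than 10000 bp on either side.

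The spacing differed between pairs within 1 H3K27ac region and pairs in different ones. The 26 spacings within 1 H3K27ac region ran from 1011 to 5943 bp with a median of 2058 bp. The 10 spacings between regions ran from 4134 to 15686 bp with a median of 8067 bp. The ranges overlapped only between 4134 and 5943 bp. A region bounds the spacings inside it, so this order is partly built in. In 105 other large domains with at least 10 TEAD summits the medians were 1687 bp within a region (530 spacings) and 7454 bp between regions (763 spacings).

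**Figure D2:**
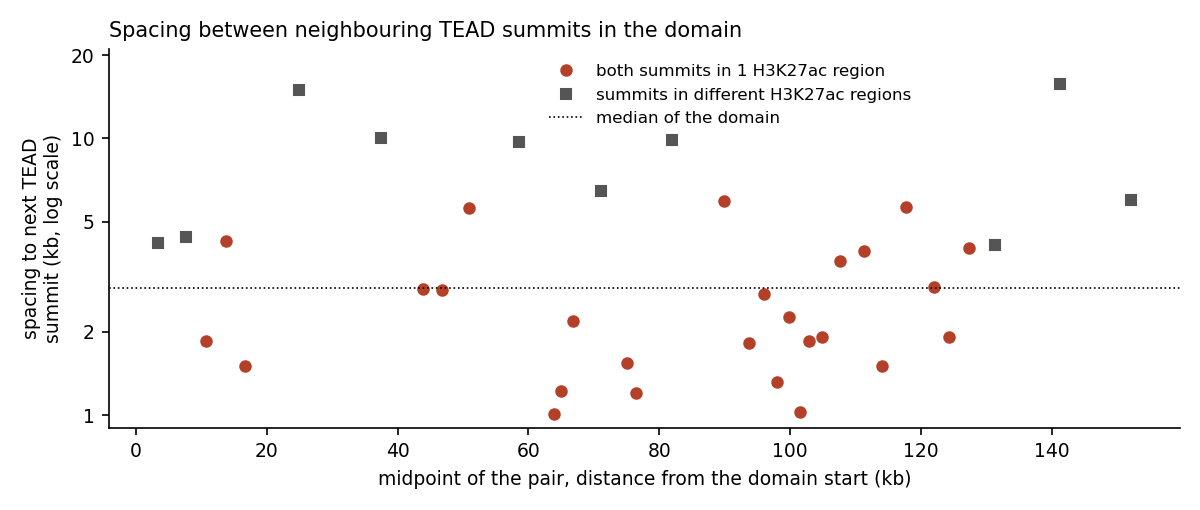
Spacing in kb (log axis) between each TEAD summit of the domain and the next, against the midpoint of the pair in kb from the domain start. The 26 circles are pairs in 1 H3K27ac region and reach 5943 bp at most, the 10 squares are pairs in different regions and start at 4134 bp, and the dotted line is the median of 2878 bp.

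All 37 TEAD summits of the domain lay inside an H3K27ac region. The 28 gaps between its H3K27ac regions summed to 36.3 kb, from 139 to 8196 bp long, and held 0 TEAD summits, which allows up to 0.825 per 10 kb (3 counts). The acetylated part held 2.94 per 10 kb (2.07 to 4.05). Over the whole 500 kb, 41 of 42 summits lay inside H3K27ac, or 97.6% (95% Wilson interval 87.7 to 99.6%), against 55.3% of all TEAD regions. Counting any shared base gave the same 41 of 42, against 68.4% of all. On the rest of chromosome 14 the share with the summit inside was 60.6% (57.6 to 63.6%). H3K27ac chose this stretch, so a high share was favoured by the choice. Other domains of high rank by summed fold times width also had most or all of their TEAD summits inside H3K27ac. Ranks 2 to 5 had 18 of 18, 36 of 37, 25 of 25 and 14 of 14 inside. Ranks 6 to 10 had 14 of 14, 14 of 15, 9 of 10, 13 of 14 and 9 of 9. A high share was thus not particular to this domain. A TEAD region with its summit just outside the H3K27ac it touched, a form taken by 4617 of the 35199 TEAD regions elsewhere, occurred 0 times here.

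The H3K27ac regions that carried TEAD were the wide ones. Of the 39, 14 carried TEAD (35.9%, 22.7 to 51.6%), a share near the 41.7% of all H3K27ac regions. The 14 were at least 2266 bp wide with a median of 5163 bp. The 25 without TEAD were at most 2563 bp wide with a median of 516 bp, so the widths barely overlapped. Elsewhere the medians were 1645 bp with TEAD and 660 bp without. The median H3K27ac fold was 15.4 in the 14 with TEAD and 4.73 in the 25 without, and no region without TEAD exceeded 8.52-fold. A wide region can hold a TEAD summit by size alone.

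One H3K27ac region carried much of the domain. It ran from 62012651 to 62058208, and at 45.6 kb it was the widest of all 52667, ahead of 37.2 kb for the next. Its summit reached 33.4-fold (28.4 to 39.1) with 153 reads. It made up 28.1% of the domain's span, 36.2% of its acetylated bases and 50.8% of its summed fold times width. Fold is a value at the summit, so that sum applies it over the whole width of a region. The widest region held 16 TEAD summits, 43.2% of the domain's. No other H3K27ac region of the list held more than 11. Its 16 summits were a median of 2260 bp apart (1030 to 5943 bp), or 3.51 per 10 kb (2.01 to 5.70). In the 117 kb of the domain outside it lay 21 TEAD summits. Median TEAD fold was 9.72 (4.43 to 40.5) inside it and 7.44 (4.32 to 34.3) in the rest of the domain, ranges that overlapped almost wholly.

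Within the domain, the other H3K27ac regions with more than 1 TEAD summit lay before it. The region from 61966834 to 61982027 (15.2 kb) had the highest H3K27ac fold of the stretch, 34.7 (28.7 to 41.6), and held 4 TEAD summits of 5.64- to 18.2-fold. The region from 61934963 to 61946893 (11.9 kb, 25.0-fold) also held 4, of 5.06- to 34.3-fold. Another, from 61988411 to 61996308 (7.90 kb, 19.5-fold), held 4 of only 4.32- to 12.2-fold at a mean spacing of 1.47 kb. The region from 61998729 to 62006560 (7.83 kb, 15.6-fold) held 3, of 6.66- to 16.8-fold. The 3 regions with 4 summits ran from 7.90 to 15.2 kb in width.

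**Figure D3:**
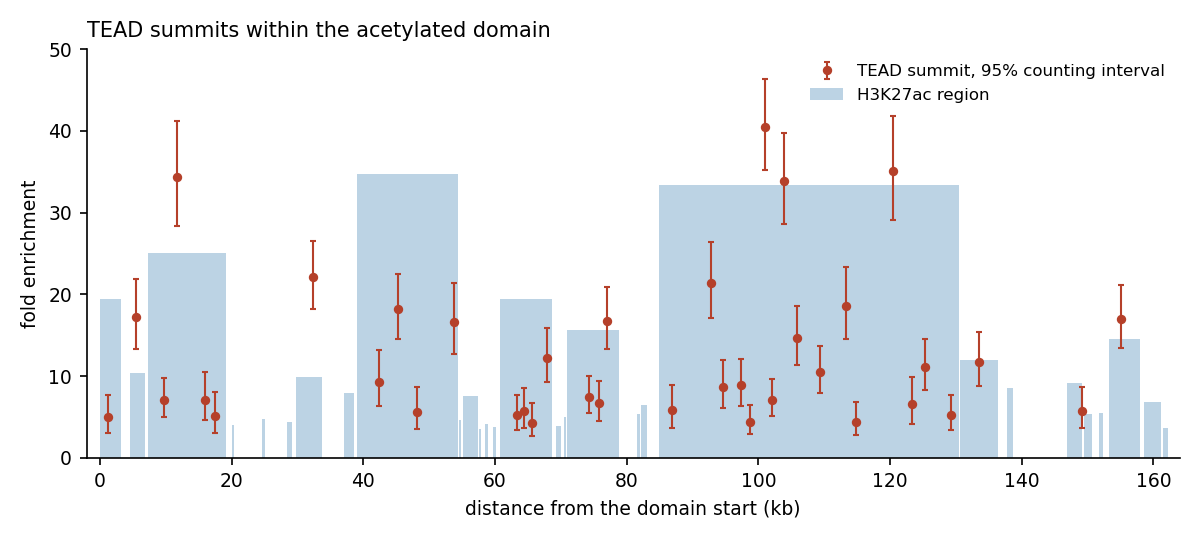
Fold enrichment of the 37 TEAD summits (points, with 95% Poisson counting intervals on the reads) over the 29 H3K27ac regions of the domain (bars, as wide as the region and as high as its summit), by distance from the domain start in kb. Every point lies over a bar, and 4 of the 6 TEAD summits of at least 20-fold lie in the widest bar.

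TEAD fold was spread widely within the domain. It ran from 4.32 to 40.5 with a median of 8.87 (interquartile range 5.78 to 17.0) in the domain. Over the 42 members the median was 8.77 (5.73 to 17.0), against 7.14 (5.33 to 11.3) for the 35199 TEAD regions elsewhere and 7.25 (5.22 to 11.2) on the rest of chromosome 14. A fold of at least 10 was reached by 18 of 42, or 42.9% (29.1 to 57.8%), against 30.4% of all TEAD regions. The lower bound of that interval lies below the share of the list, so the excess is not resolved at this number of members. A fold of at least 20 was reached by 7 of 42, against 9.26% of all.

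The strongest TEAD summits of the domain were few. The highest was at 62028704, in the widest H3K27ac region, with 210 reads and 40.5-fold (35.2 to 46.3). It lay 570 bp from the H3K27ac summit of that region, and its neighbours 2260 bp below and 1030 bp above reached only 4.43- and 7.11-fold. At 62031588, 144 reads gave 33.9-fold (28.6 to 39.8), and at 62048200, 120 reads gave 35.0-fold (29.1 to 41.8). Outside that region, 115 reads at 61939383 gave 34.3-fold (28.4 to 41.2). The counting intervals of these 4 overlapped, so their order is not resolved.

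A second tier followed at lower fold. The summits at 61960145 (22.1-fold, 18.2 to 26.5) and 62020557 (21.4-fold, 17.1 to 26.4) had 114 and 85 reads. Those at 62041042 (18.5-fold), 61973003 (18.2-fold) and 61933142 (17.2-fold) had 70, 81 and 64 reads. The upper bounds of all 5 lay below the lower bounds of the 4 above, with recovered background held fixed. At 61960145 the 114 reads stood over a background of 4.21 reads, and at 61939383 the 115 reads stood over 2.38. The split of this pair by fold thus came from recovered background, which carries no interval. The 6 domain summits of at least 20-fold carried 788 of the 2013 reads summed over the domain's 37 TEAD summits, or 39.1%. The first TEAD summit of the domain, at 61928953, had 4.98-fold (3.09 to 7.63) and the last, at 62082850, had 17.0-fold (13.5 to 21.2).

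TEAD summits mostly lay away from the H3K27ac summit of their region. The median distance was 2480 bp for the 41 inside H3K27ac, against 399 bp elsewhere. Their regions were wider, with a median of 11931 bp over TEAD summits against 2418 bp elsewhere. As a share of the width of the region the median distance was 15.1% here and 18.7% elsewhere. Distances of 150 bp or less occurred for 3 of 41, against 11.2% elsewhere, and 19 of the 41 lay on the lower-coordinate side and 22 on the higher. The median distance to the nearest edge of the region was 3266 bp here and 797 bp elsewhere.

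HIF1A differed from PRKCH in that its start was acetylated. The H3K27ac region over it ran from 62161061 to 62168954, beginning 1058 bp before the start, and reached 29.3-fold (24.4 to 34.8) with 127 reads, behind only those at 61972625 and 62029274 among the 39. TEAD at the HIF1A start was weak. Its summit, at 62162035, lay 84 bp before the start with 18 reads and 3.65-fold (2.24 to 5.65), the lowest of the 42 and rank 34204 of 35241. Its −log10 q of 4.57 was the only one of the 42 below 5. Its recovered local background was 4.21 reads, against a median of 3.51 over the 42. A second TEAD summit in the same H3K27ac region, 6.43 kb past the start, reached 6.27-fold (3.99 to 9.43) with 21 reads. The counting intervals of the pair overlapped.

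Past this region acetylation was weak and TEAD was not called. There were 6 H3K27ac regions, from 7.85 to 43.8 kb past the start, each 299 to 542 bp wide with 11 to 15 reads and 2.80- to 5.54-fold. No TEAD summit lay between 62168547 and 62222138, a spacing of 53.6 kb, the longest of the 41 in the window.

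The strongest TEAD binding by reads lay 60.0 kb past the HIF1A start. Its summit at 62222138 had 319 reads, rank 33 of all 35241 TEAD regions, and 36.7-fold (32.8 to 41.0), rank 846. The recovered background there was 7.72 reads, the only one of the 42 above 7, and 129 TEAD regions of the list had one at least as high. The H3K27ac region around it, from 62221092 to 62223753, had its summit 60 bp away but reached only 6.34-fold (4.85 to 8.15) with 59 reads and a background of 8.47. This was the lowest H3K27ac fold under any of the 41 TEAD summits inside the mark. Both lists had their highest recovered background of the stretch here, and its part in either fold was not tested.

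**Figure D4:**
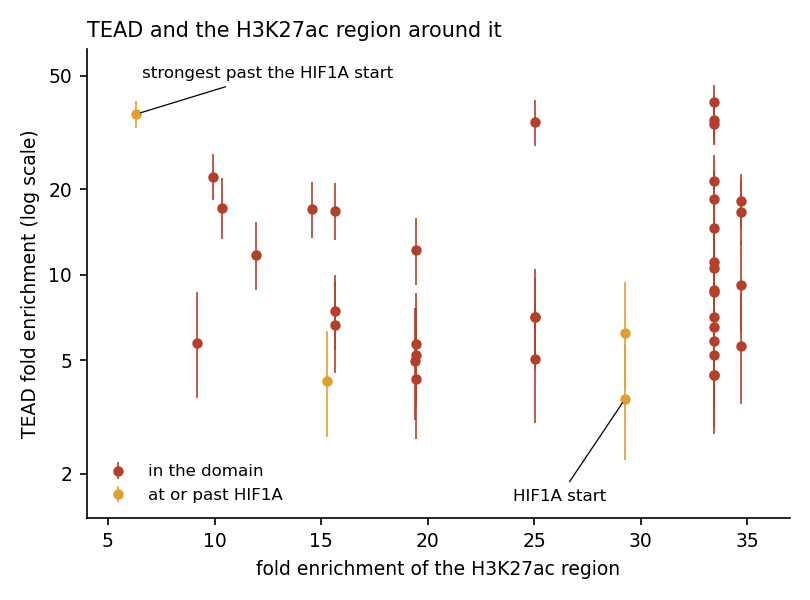
TEAD fold (log axis, with 95% Poisson counting intervals on the reads) against the fold of the H3K27ac region that holds the summit, for the 37 domain summits and the 4 at or past HIF1A. Points in 1 column share an H3K27ac region. The summit at the HIF1A start has 3.65-fold TEAD at 29.3-fold H3K27ac, and the one 60.0 kb past it has 36.7-fold TEAD at 6.34-fold H3K27ac.

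Single regions stood between the domain and HIF1A. A TEAD summit at 62109106, 53.0 kb before the HIF1A start, reached 9.22-fold (6.35 to 13.0) with 31 reads and lay 19.0 kb from the nearest H3K27ac region, the only one of the 42 without the mark. An H3K27ac region from 62128560 to 62130754, 7.45-fold (5.33 to 10.2), had no TEAD. The last pair of the window had its summits 381 bp apart, with TEAD at 4.22-fold (2.69 to 6.35) under H3K27ac at 15.3-fold (11.7 to 19.6).

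The spacing in the domain was set beside that of other large domains, those past the point where the ranked curve of summed fold times width reaches slope 1. There were 863, with a median of 5 TEAD summits and a median span of 38.0 kb. Only the third-ranked, on chromosome 1 from 8064857 to 8280256, held as many TEAD summits, 37 in 215 kb. Among the 106 large domains with at least 10 TEAD summits, 19 had a shorter median spacing than the 2878 bp here. The lower quartile was 3022 bp, the median 4019 bp and the shortest 1482 bp. Both that quartile and that median lay within the interval of the median spacing here, 1912 to 4242 bp, so the shorter spacing is not resolved. Of the spacings here 36.1% were of 2000 bp or less, against 27.7% of 1293 in the other 105. The lower quartile of all spacings was 1846 bp here and 1801 bp in the other 105. The mix of spacings differed, with 26 of 36 within 1 H3K27ac region here and 530 of 1293 there. Taken by kind, the median was longer here, at 2058 against 1687 bp within a region and 8067 against 7454 bp between regions. TEAD per 10 kb of span was lower than the 2.28 here in 90 of the 106. The acetylated share of the span was lower than the 77.6% here in 98 of the 106, and the choice of the domain on H3K27ac favoured both values. Per 10 kb of acetylated length, TEAD summits numbered 2.94 here, 2.20 in the second-ranked domain, 3.26 in the third and 3.42 in the fourth.

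The domains ranked next were not alike. The second had 18 TEAD summits at a median spacing of 5914 bp, the third 37 at 3704 bp, and the fourth, on chromosome 7 from 27134998 to 27224669, 25 at 2151 bp. Median TEAD fold was 8.87 here, 8.99 in the second, 6.57 in the third and 5.41 in the fourth. The fourth was thus denser in TEAD than the domain between the PRKCH and HIF1A starts and weaker at the typical summit. These are single values from 1 library, and no difference between domains was tested.

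**Figure D5:**
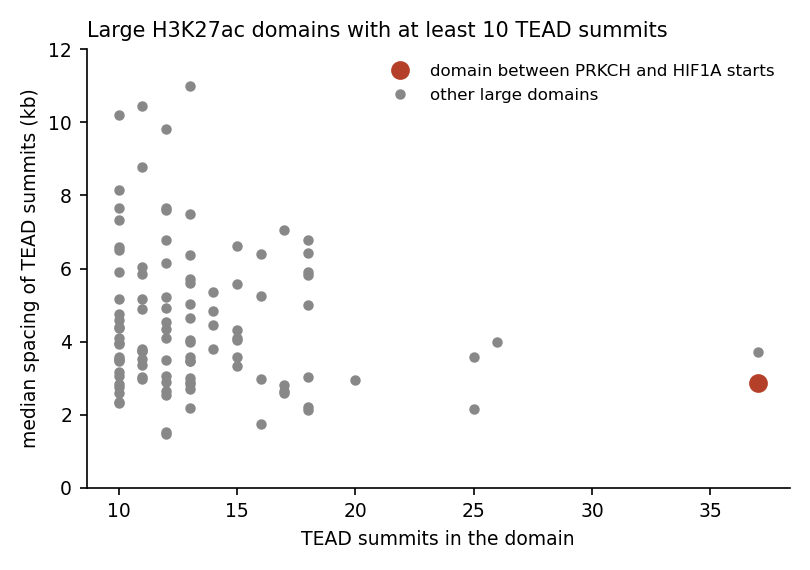
Median spacing of TEAD summits in kb against the number of TEAD summits, for the 106 large H3K27ac domains with at least 10. The large point, the domain between the PRKCH and HIF1A starts, has 37 summits at a median of 2878 bp, and 19 domains lie below it.

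Summit pileups were higher here than elsewhere for TEAD, with close medians for H3K27ac. Those of TEAD had a median of 41 reads in the domain and 37.5 over the 42 members, against 24 elsewhere. Those of H3K27ac had a median of 25 reads in the domain and 24 over the 39 members, against 24 elsewhere. Recovered background had a median of 3.51 reads at the domain's TEAD summits, against 2.45 elsewhere and 2.64 on the rest of chromosome 14. At H3K27ac summits the medians were 3.16 reads in the domain, against 2.82 elsewhere. DNA copy number was not measured, and the part of background in these counts was not tested.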

How the data were processed

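The submitters' processing notes name fastp, Bowtie2 2.4.5, MACS2 and hg19, with no role, order or threshold. The authors deposited 1 peak list per antibody, each from 1 library. For each peak they deposited the fold enrichment at the summit, its −log10 p and −log10 q, the summit's place, and a whole-number score that was not used.

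Chromosome Y was left out (123 TEAD and 183 H3K27ac peaks). Pileup k and background b at a summit were recovered from the deposited fold, (k + 1)/(b + 1), and the deposited −log10 p, the Poisson chance of more than k reads. A whole k fitted within 0.002 for 100% of both lists. The same steps gave back 100% of 5000 simulated pileups. Fold intervals carry exact Poisson bounds on k, and shares have Wilson intervals. The lowest background was 1.30 reads for TEAD and 1.45 for H3K27ac and the median summit pileup was 24 reads for each antibody.

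Regions given in full were the 10 TEAD regions of highest fold, those at the gene starts and domain ends, the longest and shortest spacings and the 5 H3K27ac regions of highest fold. Members and lists were chosen with earlier results of these data known. Alternatives changed the peak threshold, the overlap rule and the joining gap. Promoters came from RefSeq (GRCh38.p14). Python 3.11.15, numpy 2.4.6, pandas 2.3.3, scipy 1.17.1 and matplotlib 3.10.9 were used.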

Additional observations from a re-analysis of the deposited data

How the results depend on the processing

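Of 18 alternatives over 7 results, 17 kept counts within 1.5 times and medians and shares within the interval of the value reported. The exception was the number of H3K27ac regions, 39, which was 25 when only regions of at least 5-fold were counted. With a joining gap of 5 kb the domain held 35 TEAD summits at a median spacing of 2845 bp. With TEAD regions of at least 5-fold it held 33 at 3591 bp. The nearest H3K27ac summit of any region lay a median of 1823 bp from a TEAD summit, and 2480 bp at −log10 q of at least 5. No paired analysis was possible because each antibody had 1 library and no result comes from a test. Depth limits the weak end, where TEAD members had as few as 16 reads and H3K27ac members 11.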
